A study of Mus musculus with 2 samples.

Results

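The Reg (regenerating) genes encode small secreted proteins built around a single C-type lectin domain. The 7 mouse members Reg1, Reg2, Reg3a, Reg3b, Reg3d, Reg3g and Reg4 were taken by symbol from the 38924 genes of the deposited files, after the transcripts of each gene had been summed, and all 7 were found. They were followed in islets of Langerhans, the hormone-producing part of the pancreas, from 2 inbred mouse strains. CAST/EiJ (CAST) derives from wild Mus musculus castaneus, and C57BL/6J (B6) is the strain of the mouse reference genome. Male mice of both strains were 10 weeks old, received no treatment named in the labels and carried no engineered allele named there. Islets were freed with collagenase, enriched on a density gradient and picked by hand in buffer with 16.7 mM glucose. Islets of 2 mice per strain were pooled, and 250 islets of each pool gave 1 RNA library. The CAST library held 104324631 expected counts and the B6 library 76600903.

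With 1 pooled library per strain there is no replicate error, and no difference between the strains could be tested. Log2 ratios are of CAST over B6, on counts scaled by TMM (a factor that centres the bulk of genes), and their 95% intervals cover counting error only. A pool of 2 mice does not show whether both mice contributed alike. In whole islets, fewer cells of a type and less RNA per cell cannot be told apart. The Reg genes were chosen with their ratios known, so their values are a description.

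Reg1 was first cloned from regenerating rat islets and is best known as a secretory product of pancreatic acinar cells, the exocrine cells that surround the islets. The Reg3 genes are known from intestinal epithelium and from inflamed pancreas, where Reg3b was described as pancreatitis-associated protein. Their transcription is known to respond to cytokines such as IL-6 and IL-22 through the transcription factor STAT3. Reg4 marks secretory cells of the gut.

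The deposited libraries carried islet and acinar RNA together. The 9 islet endocrine markers, from insulin to Nkx6-1, made up 29.1% of counts in CAST and 26.3% in B6, and their median log2 ratio was -0.01. Ins2, the main insulin gene, had a log2 ratio of 0.60, and Sst, the somatostatin gene, one of -0.90. The 31 acinar enzyme genes made up 3.65% of counts in CAST and 0.885% in B6, with a median log2 ratio of 2.16. None of the 31 was at 0 in either library, although Cela3a, an elastase gene, had 10666 counts in CAST and only 3 in B6. The Reg values below were measured beside this acinar difference.

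Of the 7 Reg genes, 6 lie in a block of 98.2 kb on chromosome 6 (chr6:78370657-78468872, GRCm38), in the order Reg3b, Reg3d, Reg3a, Reg2, Reg1 and Reg3g. Gaps between neighbours run from 1.84 to 37.6 kb, and no other gene in the files overlaps the block. Reg3d and Reg3g are on the minus strand and the others on the plus strand. Reg4 stands alone on chromosome 3 (chr3:98222156-98236748). The main transcript of each gene has 6 exons, with lengths between 698 bases (Reg2) and 1021 bases (Reg4).

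The closest pair are Reg1 and Reg2, which share 82.5% of 498 aligned coding bases. The longest run of identical bases in their transcripts is 19. The last 120 coding bases of each, stop codon included, are given here because they show where a read can be assigned to one gene or the other, and capitals mark the 20 mismatches.
Reg1: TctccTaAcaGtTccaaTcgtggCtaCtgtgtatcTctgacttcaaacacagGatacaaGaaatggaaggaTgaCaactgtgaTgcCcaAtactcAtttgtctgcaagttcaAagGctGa
Reg2: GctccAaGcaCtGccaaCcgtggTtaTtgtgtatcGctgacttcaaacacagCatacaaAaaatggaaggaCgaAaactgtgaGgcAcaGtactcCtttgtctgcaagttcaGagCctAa
Reg3b and Reg3g came next, with 76.4% of 525 coding bases and a longest shared run of 35 bases. No Reg transcript had a partner in the annotation with 95% identity over 200 bases. Expected counts of Reg2, Reg3a, Reg3b and Reg4 were within 0.2 of whole numbers in both libraries, and so were those of Reg1, at 80564.8 in CAST and 12790.1 in B6. Counts near whole numbers do not show that no reads were divided between genes.

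The promoters of the most abundant member (Reg1), the member with the highest ratio (Reg2) and the member with the lowest ratio (Reg3b), are shown for the 250 bases before the annotated start, 5′ to 3′ on the strand of the gene (RefSeq, GRCm38.p6). Capitals mark each E-box of the form CANCTG that is followed within 30 bases by TTCCC or GGAAA, that second box, and the TATAAA box.
Reg1: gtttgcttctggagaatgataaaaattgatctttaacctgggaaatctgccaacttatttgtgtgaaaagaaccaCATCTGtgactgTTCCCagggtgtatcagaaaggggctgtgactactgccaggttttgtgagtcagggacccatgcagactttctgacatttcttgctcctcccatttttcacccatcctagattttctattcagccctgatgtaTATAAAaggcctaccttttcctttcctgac
Reg2: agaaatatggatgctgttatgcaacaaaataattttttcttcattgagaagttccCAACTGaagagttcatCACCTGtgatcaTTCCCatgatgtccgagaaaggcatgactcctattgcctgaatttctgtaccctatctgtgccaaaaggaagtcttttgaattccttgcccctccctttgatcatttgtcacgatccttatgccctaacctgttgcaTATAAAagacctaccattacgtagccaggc
Reg3b: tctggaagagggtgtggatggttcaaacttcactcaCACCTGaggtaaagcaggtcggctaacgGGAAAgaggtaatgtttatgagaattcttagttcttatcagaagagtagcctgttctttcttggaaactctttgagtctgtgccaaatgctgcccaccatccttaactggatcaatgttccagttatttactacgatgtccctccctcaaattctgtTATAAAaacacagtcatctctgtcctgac
They lie at chr6:78425733-78425982, chr6:78404905-78405154 and chr6:78370635-78370884, all on the plus strand. Blocks of 50 bases around the same boxes of Reg3a and Reg3d, and the block of Reg3g that holds a similar stretch without CANCTG, are set under each other to show the shared letters.
Reg3a: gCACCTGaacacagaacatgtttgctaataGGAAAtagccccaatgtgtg
Reg3d: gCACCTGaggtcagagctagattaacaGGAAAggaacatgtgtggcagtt
Reg3g: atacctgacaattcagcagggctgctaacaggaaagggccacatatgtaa
These start 167, 188 and 214 bases before the annotated start of their genes (chr6:78380542-78380591 plus strand, chr6:78379004-78379053 minus strand and chr6:78469039-78469088 minus strand).

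Between the E-box and the second box there were 6 bases in Reg1, 20 in Reg3d, 22 in Reg3b and 23 in Reg3a. In Reg2, 2 E-boxes came before the same second box, at 22 and 6 bases from it. The pair of boxes, searched on both strands, was found in 5 of the 7 Reg promoters and in 5.54% of all 32851 promoters of the same length. It was defined after these sequences had been read. PTF1, the transcription factor complex of acinar cells, is known to bind an E-box together with a TC box. The TC box in the full form TGGGAAA was present in Reg1, Reg3d and Reg3g and in 6.82% of all promoters. It lay at position -212 from the annotated start in Reg1 and at -239 and -104 in Reg3d. The second boxes of these genes lay elsewhere, at -163 in Reg1 and -161 in Reg3d. None of the marked second boxes was part of a TGGGAAA match. CANNTG, of which CANCTG and CACCTG are special cases, was present in all 7 and in 66.2% of promoters, and CACCTG in 5 of 7 and in 17.2%. The letters TTCNNNGAA, the form of a STAT element, were found in Reg3b and Reg3d and in 7.02% of promoters. TATAAA was found in Reg1, Reg2, Reg3b and Reg3g and in 12.4% of promoters. Matches can overlap: each CACCTG is also a CANNTG, each TGGGAAA holds GGAAA, and in Reg3d the TTCNNNGAA match overlaps a TGGGAAA match on the other strand. Starts are those of RefSeq, and the GENCODE gene spans of Reg1, Reg2 and Reg3b begin further upstream. A match of letters is a description and does not show binding.

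**Figure D1:**
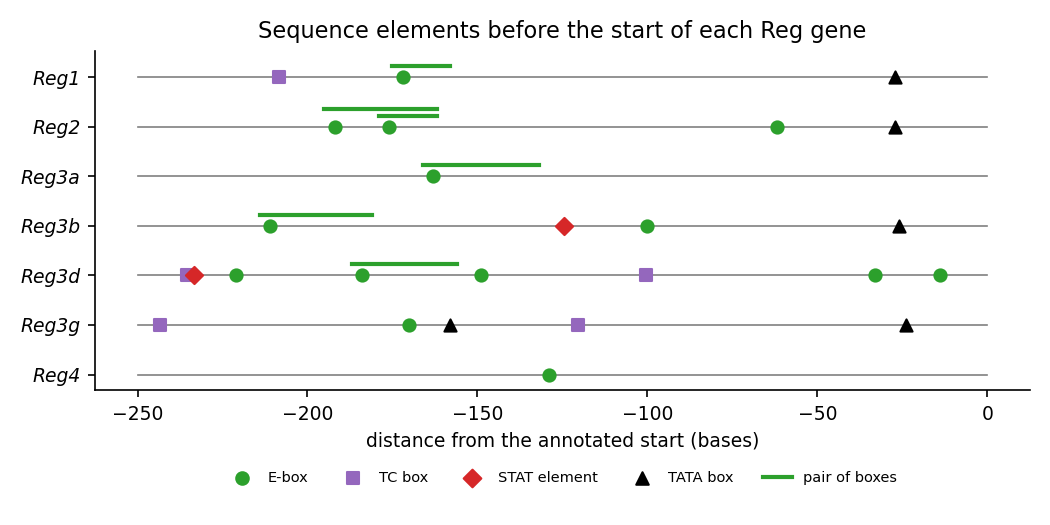
Positions of sequence elements in the 250 bases before the annotated start of each Reg gene, with distance in bases on the horizontal axis and 1 line per gene. Symbols mark matches on either strand and green bars mark each E-box with its second box, present in Reg1, Reg2, Reg3a, Reg3b and Reg3d and not in Reg3g or Reg4.

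Reg1 had the highest level of the family and Reg4 the lowest in both libraries. Reg1 stood at 1161 TPM (the share of transcript molecules, scaled to the same total in each library) in CAST and 287 TPM in B6, which placed it at rank 41 of all genes in CAST and rank 188 in B6. Reg2 stood at 397 TPM in CAST and 19.3 TPM in B6, at ranks 118 and 4305 in those libraries. The Reg3 genes were far lower, and together they came to 17.2 TPM in CAST and 9.05 TPM in B6. In CAST the order of levels was Reg1, Reg2, Reg3d, Reg3a, Reg3b, Reg3g and Reg4, whereas in B6 Reg3b was above Reg3a. The spread over samples is not known at 1 library per strain, so the order of neighbours holds for these libraries only.

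**Figure D2:**
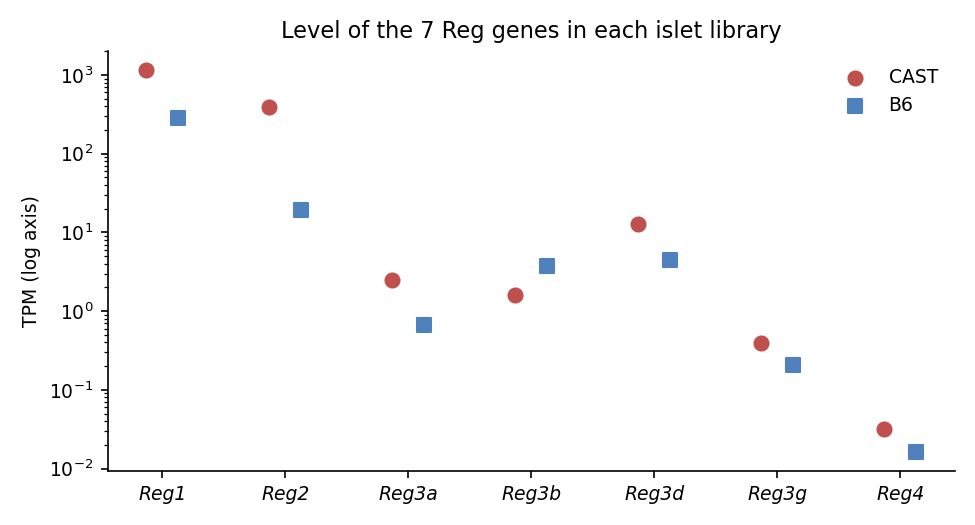
Level of each Reg gene in TPM on a log axis, with 1 point per library, CAST as circles and B6 as squares. Reg1 and Reg2 sit highest in both libraries, and Reg3b is the member whose B6 point (3.69 TPM) is above its CAST point (1.61 TPM).

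The family as a whole was higher in CAST. Its summed counts were 106264 in CAST and 13978 in B6, or 0.102% of all counts (exact Clopper-Pearson interval 0.101 to 0.102) and 0.0182% (0.0179 to 0.0186), and the log2 ratio was 2.64 (2.61 to 2.66, 6.22-fold). Without Reg1 it was 4.15 (4.06 to 4.23), a value set by Reg2. Of the 5 members with 100 or more counts over both libraries, 4 passed 2-fold toward CAST, as did 7.18% of the 14768 genes with that many counts. Toward B6 the count was 0 of 5, beside 5.99% of those genes. The median log2 ratio of the 5 was 2.21 and that of all 14768 genes 0.02. Reg3g and Reg4 had fewer counts and are given apart.

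Reg1 had 80565 counts in CAST and 12790 in B6, a log2 ratio of 2.37 (2.34 to 2.39, 5.16-fold). Among the 14768 genes with 100 or more counts, 422 had a higher ratio. Reg2, a close relative of Reg1 studied as an autoantigen of beta cells, had 24469 counts in CAST and 764 in B6. Its log2 ratio of 4.71 (4.61 to 4.82, 26.2-fold) was the highest of the family, with 253 of those 14768 genes above it. As a share of Reg1 counts, Reg2 came to 30.4% in CAST and 5.97% in B6, a 5.08-fold difference (4.72 to 5.48). Within the family Reg2 thus took 25.2% of the summed TPM in CAST and 6.12% in B6, and Reg1 took 73.7% in CAST and 91.0% in B6.

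**Figure D3:**
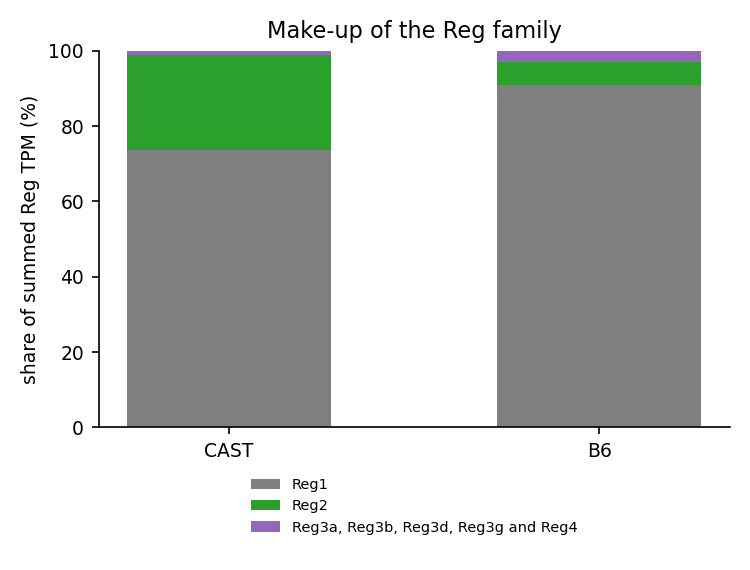
Share of the summed Reg TPM in percent for each library, CAST on the left and B6 on the right, stacked by gene. Reg2 fills 25.2% of the CAST bar and 6.12% of the B6 bar.

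The Reg3 genes did not move as a block. Reg3d, known as a relative of the islet neogenesis-associated protein of hamsters, had 899 counts in CAST and 204 in B6 (log2 1.85, 1.63 to 2.08). Reg3a had 189 counts in CAST and 33 in B6 (log2 2.21, 1.69 to 2.81). Both were thus higher in CAST, by 3.60-fold and 4.64-fold. Reg3b lies beside Reg3d at the end of the cluster and differed the other way, with 110 counts in CAST and 162 in B6 (log2 -0.84, -1.21 to -0.49). That is 1.80-fold higher in B6, short of 2-fold with TMM factors and just past it, at log2 -1.0003, with total-count scaling. Set against Reg3b, Reg3d was 6.49-fold (4.88 to 8.64) and Reg3a 8.43-fold (5.42 to 13.1) higher in CAST than in B6.

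**Figure D4:**
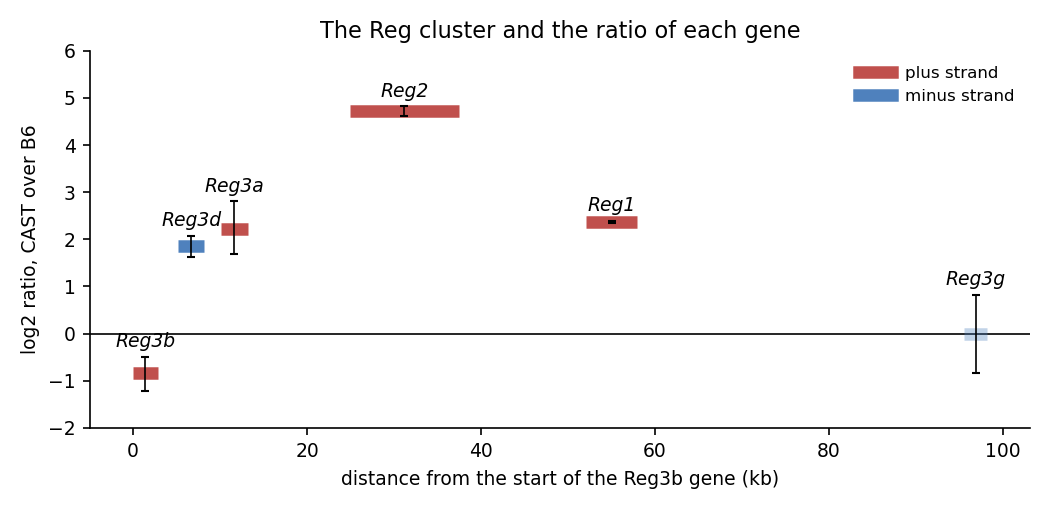
CAST over B6 ratio on the log2 scale for the 6 genes of the chromosome 6 cluster, drawn at their distance in kb from the start of Reg3b, with 95% counting intervals and bar colour for the strand. Reg2 is highest at 4.71, Reg3b is below 0 at -0.84, and Reg3g, drawn pale, had fewer than 100 counts.

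Reg3g encodes a lectin known to kill Gram-positive bacteria in the gut. It had 29 counts in CAST and 24 in B6 (log2 -0.02, -0.85 to 0.83), so a difference in summed counts was not detectable at this depth. By TPM it stood at 0.396 in CAST and 0.206 in B6. Its counts were assigned to different transcripts. In CAST 26.8 of them were assigned to the coding transcript Reg3g-201, with 6 exons, and 2.20 to Reg3g-202, a transcript with 2 exons annotated as retaining an intron. In B6 1.47 were assigned to Reg3g-201 and 22.5 to Reg3g-202. The coding transcript therefore held 97.3% of the gene's TPM in CAST and 16.0% in B6. The error of RSEM, the authors' quantification tool, in dividing so few reads is unknown here. Reg4 had 3 counts in CAST and 1 in B6, at or under the floor of 3 counts, and no ratio is given. Reg3d-202, which has 5 exons, held 0.369% of the TPM of Reg3d in CAST and had 0 counts in B6. The other members have 1 transcript in the files.

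Set against acinar enzymes, the Reg genes differed among themselves. Summed acinar enzyme counts were 3803659 in CAST and 678021 in B6. Reg1 came to 2.12% of that sum in CAST and 1.89% in B6, a ratio of 1.12 (1.10 to 1.14), and Reg3a gave a ratio of 1.02 (0.705 to 1.48). Reg3d gave 0.786 (0.675 to 0.915), and 0.892 (0.766 to 1.04) when acinar genes with near-identical copies were left out. Reg2 was 5.71-fold higher relative to the acinar sum in CAST (5.31 to 6.14). Reg3b came to 0.00289% of it in CAST and 0.0239% in B6, a ratio of 0.121 (0.0950 to 0.154). Without the acinar genes that have near-identical copies, the ratio was 1.28 (1.25 to 1.30) for Reg1 and 1.16 (0.801 to 1.68) for Reg3a. It was 6.48 (6.03 to 6.97) for Reg2 and 0.137 (0.108 to 0.175) for Reg3b. Amy2b, among the genes left out, had 703091 counts in CAST and 368 in B6.

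Among the 24 acinar enzyme genes with no near-identical copy, log2 ratios ran from 1.30 to 11.3, with a median of 2.16. The ratio of Reg1 was above 17 of the 24, that of Reg3a above 13 and that of Reg3d above 4. Reg2 was above 22 of them, and the exceptions were Cela3a and Ctrc, a chymotrypsin gene that was named after its values were seen (log2 6.81, 21065 counts in CAST and 153 in B6). Reg3b was below all 24. The part of acinar RNA in the Reg ratios was not tested beyond these comparisons. Both libraries were quantified on the B6-based reference, and the part of CAST sequence variants in the counts of Reg2, Reg3b or the transcripts of Reg3g was not tested.

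**Figure D5:**
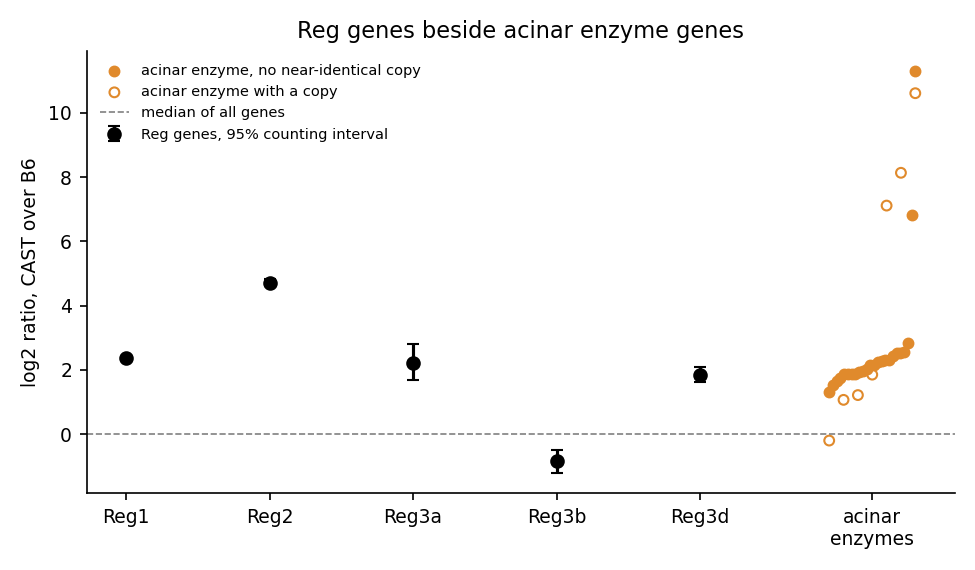
CAST over B6 ratio on the log2 scale for the 5 Reg genes with 100 or more counts, with 95% counting intervals, beside 31 acinar enzyme genes (filled where no near-identical copy was found, open where one was). Reg1, Reg3a and Reg3d lie within the main band of filled points, Reg2 lies above it at 4.71 and Reg3b below it at -0.84.

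The 5 genes nearest to Reg1 by level in both libraries were Cel, Gm1821, Cela3b, Try5 and 2210010C04Rik, by distance on the log2 TPM scale over 2 libraries. Cel, which encodes carboxyl ester lipase, stood at 1190 TPM in CAST and 274 TPM in B6. Cela3b, an elastase gene, stood at 934 TPM in CAST and 325 TPM in B6, and Try5, a trypsinogen gene with a near-identical copy, at 1011 TPM in CAST and 357 TPM in B6.

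Acinar transcription factor genes differed less than the enzymes. Their median log2 ratio over 5 genes was 0.40. Beside 7.18% of all genes with 100 or more counts, 1 of the 5 was at least 2-fold higher in CAST. That gene was Gata4 (log2 1.61), while Ptf1a, the acinar-specific subunit of PTF1, had 91 counts in CAST and 55 in B6 (log2 0.43, -0.06 to 0.95). Rbpjl, its partner that recognises the TC box, had a log2 ratio of 0.36, and Bhlha15 one of 0.17. Genes of acinar injury had a median of -0.08 over 9 measured members, below the median of all genes with TMM factors and above it by TPM. Of these, 2 were at least 2-fold higher in CAST, beside the 7.18% of all genes. They were Tff2, a trefoil peptide gene (log2 2.13), and Spink1, a trypsin inhibitor gene that is also on the enzyme list (1.98). The lowest were Onecut2 (-0.38) and Krt18 (-0.25).

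Cytokines, receptors and signalling genes listed as upstream of Reg genes had a median log2 ratio of 0.13 over 21 measured genes of 25. Past 2-fold were 3 toward CAST and 1 toward B6, beside 7.18% and 5.99% of all genes with 100 or more counts. Il6, which encodes interleukin 6, had 1440 counts in CAST and 116 in B6 (log2 3.34, 3.07 to 3.63). Il22ra1, a subunit of the IL-22 receptor, had 109 counts in CAST and 20 in B6 (log2 2.13, 1.46 to 2.92). Il17ra, a subunit of the IL-17 receptor named after its values were seen, had a log2 ratio of 1.70. Cish, a feedback inhibitor of cytokine signalling with a near-identical copy in the annotation, was lower in CAST, with 2713 counts in CAST and 7758 in B6 (log2 -1.80), and Ifngr2 had a log2 ratio of -0.65. Il22 itself, which also has a near-identical copy, had 8 counts in CAST and 5 in B6. Il22, Stat3 and Socs3 were also named after their values were seen. Stat3 and its feedback inhibitor Socs3 differed by log2 0.18 and -0.42.

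Acute phase genes and other STAT3 targets had a median of 0.29 over 9 measured genes of 20. None of the measured genes was 2-fold apart, beside 13.2% of all genes with 100 or more counts. The extremes were Lrg1 (0.78) and Bcl3 (0.43) at the upper end and Cebpd (-0.72) and Junb (-0.13) at the lower end, and 4 of the 20 had 0 counts in both libraries. Extl3, which encodes a proposed Reg receptor, had 4276 counts in CAST and 3824 in B6 (log2 -0.13, -0.19 to -0.06).

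Markers of other cell types differed between the libraries to unlike extents. Past 2-fold toward CAST were 5 of 8 stellate and fibroblast, 3 of 7 duct, 1 of 5 endothelial and 0 of 6 leukocyte markers. Only markers with 100 or more counts were taken, and 7.18% of all genes with that many passed 2-fold toward CAST. Toward B6 the only one was Ambp, a duct marker, beside 5.99% of those genes. Stellate cell and fibroblast markers had a median log2 ratio of 1.19 over 8 genes, from Pdgfrb (0.04) and Col1a2 (0.62) to Lum (1.72) and Thy1 (2.77), with 16474 summed counts in CAST and 6793 in B6. Duct markers had a median of 0.48 over 7 measured genes of 8, from Ambp (-1.10) to Muc1 (1.35) and Krt19 (3.52), with 24575 summed counts in CAST and 24293 in B6. Endothelial and leukocyte markers had medians of 0.48 over 5 genes and 0.35 over 6 of 7. Vwf (1.44) was the highest endothelial marker and Kdr (0.01) the lowest. Csf1r (0.71) was the highest leukocyte marker and Adgre1 (-0.77) the lowest. The part of these cells in the Reg values was not tested.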

How the data were processed

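Per the submitters' processing notes, the authors quantified both libraries with RSEM on GRCm38; no source used here gives the aligner, versions, read length, strand setting or annotation release. The deposited files list 94545 transcripts of 38924 genes, each with an expected count that the authors' RSEM run estimated and a fraction of all transcript molecules. The deposited fraction sums to 1 in each file and was multiplied to TPM.

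For each gene the transcripts' expected counts were added up and rounded. Of the gene IDs 37607 matched a symbol in GENCODE M21 (GRCm38); the others held 0.172% of counts in CAST and 0.176% in B6. TMM factors came from edgeR 4.0.16 (0.947 for CAST, 1.06 for B6; R 4.3.3). The log2 ratio adds 0.5 to scaled counts, and a gene entered with at least 100 counts in the sum of both libraries. Single-gene intervals are exact Clopper-Pearson intervals of the part of a gene's counts that came from CAST. Intervals of ratios between gene sets come from the standard error of the log odds ratio. Intervals, and the per-library floor of 3 counts, reflect counting error alone. The intervals treat reads as independent. Reads are not independent molecules, so the intervals can be too narrow even for counting error. Near-identical copies (95% identity over 200 bases and 50% of the shorter of the longest transcripts) were searched with blastn 2.17.0. The calculation of ratios was checked on simulated Poisson counts, which hold only the counting error that the intervals assume. Variation between mice and errors of read assignment were not simulated, so the check does not bear on them.

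The members and the 12 comparison lists were chosen with earlier results of these data known. Named genes are the 7 Reg genes, islet hormones, up to 2 members at either end of each list (100 or more counts), and the 5 genes nearest to Reg1; not every gene the rule names is reported. Alternatives were DESeq2 1.42.0 size factors, total counts, TPM with a pseudocount of 1, a constant of 5, other count minimums, thinning of CAST, the most abundant transcript, and other acinar sums. Promoter sequences are RefSeq's (GRCm38.p6); all 7 Reg genes matched. The CACCTG and TATAAA motifs and the pair of boxes were chosen after the sequences had been read. Computation used Python 3.11.15 with pandas 2.3.3, scipy 1.17.1, numpy 2.4.6 and, for plots, matplotlib 3.10.9. Protein data were not analysed here.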

Additional observations from a re-analysis of the deposited data

How the results depend on the processing

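Reg1, Reg2, Reg3a, Reg3d and the summed family stayed above 0, and Reg3b below 0, under each alternative run for them. With total-count scaling the log2 ratio was 2.21 for Reg1, 4.55 for Reg2 and 2.48 for the family. By TPM with a pseudocount of 1 it was 2.01 for Reg1, 4.29 for Reg2, 1.06 for Reg3a, 1.32 for Reg3d and 2.32 for the family; that pseudocount lowers the ratios of weak genes. The median of all genes itself moved to -0.14 with total counts and -0.26 by TPM. Without Reg1 the family ratio was 4.15. The Reg family over the acinar enzymes differed by log2 0.44, by 0.52 with TPM sums, by 0.62 without acinar genes that have copies, and by 0.48 against the median acinar gene, an alternative chosen after seeing the data. Genes at least 2-fold higher in CAST numbered 1061, 463 by TPM and 3748 with a minimum of 1 count; for B6 they numbered 885, 1403 with a minimum of 20 counts and 3083 with a minimum of 1 count. The share of 2-fold genes higher in CAST was 54.5% with TMM factors, 44.2% with total counts and 38.6% by TPM. Relative to all genes, list medians by TPM moved to -0.10 for islet, 2.05 for acinar enzyme, 0.76 for stellate and 0.13 for acute phase genes. The acinar injury median, -0.098 relative to all genes with TMM factors, changed sign by TPM, to 0.019; the cause was not tested. No paired analysis was possible because each strain has 1 library. Depth limits Reg3g and Reg4, and the error of RSEM's assignments was not tested.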

Other observations

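Genes of intestinal secretory cells, the cell types in which the Reg3 genes and Reg4 are best known, were mostly near 0. Of 11 listed, 3 had 0 counts in both libraries (Retnlb, Tff1 and Ang4) and 3 reached 100 counts. Tff2 had 4691 counts in CAST and 874 in B6 (log2 2.13, 2.03 to 2.24), and Tff3, another trefoil peptide gene, 102 counts in CAST and 8 in B6 (log2 3.31, 2.35 to 4.63). Fcgbp, which encodes a mucus protein, had 225 counts in CAST and 94 in B6 (log2 0.97). Below 100 counts, and named after their values were seen, were Spink4 (61 counts in CAST and 7 in B6), Muc2 (41 in CAST and 0 in B6) and Lyz1 (28 in CAST and 2 in B6). Lyz1 has a near-identical copy in the annotation.

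The nearest genes with 100 or more counts on either side of the Reg cluster were neural genes. Ctnna2, an alpha catenin gene that ends 391 kb before Reg3b, had 1247 counts in CAST and 669 in B6 (log2 0.61, 0.47 to 0.75). Lrrtm4, a synaptic adhesion gene that begins 1550.0 kb after Reg3g, had 54 counts in CAST and 119 in B6 (log2 -1.42, -1.92 to -0.95).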
